A study of Mus musculus with 16 samples.

Results

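Heat shock chaperones were followed in RAW 264.7 cells, a mouse macrophage-like line, through a list of 10 genes: Hspa1a, Hspa1b, Hspa8, Hspa5, Dnajb1, Hsph1, Hsp90aa1, Hsp90ab1, Bag3 and Hspe1. Every measuring probe of the array whose gene name equalled one of these symbols was taken, whatever its signal. This gave 15 of the 55681 probes and reached 9 of the 10 genes, of 34836 gene names on the array, since no probe carried the name Hspa1b. The probe named Hspa1a listed accessions of both Hspa1a and Hspa1b, so these near-identical genes could not be told apart.

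All wells held cells kept for 24 h in medium with 0.5% serum, and every well received DMSO, the solvent of cordycepin. The 4 conditions were DMSO alone, 20 µM cordycepin (3′-deoxyadenosine), DMSO followed by 1 µg/ml lipopolysaccharide (LPS+DMSO), and cordycepin followed by the same LPS dose (LPS+cordycepin). DMSO or cordycepin was present for 120 min in all, and LPS for the last 60 min. Each condition had 4 arrays, 1 from each of 4 days, and the 4 wells of a day came from 1 plate. The cells were a single established line, so the spread between arrays was that between days and wells of this line.

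Chaperones bind unfolded stretches of other proteins and let them fold, move or be degraded. HSP70 proteins (Hspa1a, Hspa8, Hspa5) do so in cycles of ATP hydrolysis that J-domain proteins such as Dnajb1 speed up and that nucleotide exchange factors such as Hsph1 and Bag3 complete. Heat and other protein damage activate the transcription factor HSF1, which binds inverted repeats of GAA upstream of these genes, while Hspa5 is the classical target of the unfolded protein response of the endoplasmic reticulum. Macrophages stimulated with LPS are known to switch on a large programme of early genes within the first hour.

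Promoters are shown for 5 genes, because they hold different motif letters upstream of genes with different responses: the 3 genes that rose after LPS (Dnajb1, Bag3, Hspa5), a gene that was not called and holds a full heat shock element (Hspe1), and the stress-inducible Hspa1a. Each runs 5′ to 3′ over the 250 bases before the RefSeq transcription start in the build GRCm38.p6. Capitals mark matches on either strand to the heat shock element (2 units, GAANNTTC or TTCNNGAA; 3 units, GAANNTTCNNGAA or TTCNNGAANNTTC), the AP-1 site (TGANTCA), the cAMP response element (TGACGTCA) or the ER stress response element (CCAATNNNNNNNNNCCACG). A 3-unit match contains 2-unit matches.
Dnajb1, chr8:83607925-83608174, plus strand: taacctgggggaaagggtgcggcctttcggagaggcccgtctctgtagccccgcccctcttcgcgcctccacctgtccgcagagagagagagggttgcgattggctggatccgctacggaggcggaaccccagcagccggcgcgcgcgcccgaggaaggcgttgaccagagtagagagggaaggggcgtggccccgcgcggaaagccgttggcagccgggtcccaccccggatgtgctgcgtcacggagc
Bag3, chr7:128523333-128523582, plus strand: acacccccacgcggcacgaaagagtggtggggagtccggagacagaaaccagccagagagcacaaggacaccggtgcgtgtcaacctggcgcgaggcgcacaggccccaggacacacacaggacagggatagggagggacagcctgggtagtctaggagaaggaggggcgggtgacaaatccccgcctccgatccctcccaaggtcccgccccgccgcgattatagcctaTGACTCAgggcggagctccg
Hspa5, chr2:34771840-34772089, plus strand: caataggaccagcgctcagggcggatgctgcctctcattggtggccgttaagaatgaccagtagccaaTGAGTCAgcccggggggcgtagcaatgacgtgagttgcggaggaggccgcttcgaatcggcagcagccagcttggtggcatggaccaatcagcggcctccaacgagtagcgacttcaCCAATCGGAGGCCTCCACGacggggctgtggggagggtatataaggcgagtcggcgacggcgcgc
Hspe1, chr1:55087898-55088147, plus strand: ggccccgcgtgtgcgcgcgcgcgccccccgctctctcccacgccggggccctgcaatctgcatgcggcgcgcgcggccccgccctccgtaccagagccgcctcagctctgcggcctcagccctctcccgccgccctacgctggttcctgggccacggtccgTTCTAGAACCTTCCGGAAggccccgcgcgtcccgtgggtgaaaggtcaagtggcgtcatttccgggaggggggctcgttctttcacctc
Hspa1a, chr17:34972157-34972406, minus strand: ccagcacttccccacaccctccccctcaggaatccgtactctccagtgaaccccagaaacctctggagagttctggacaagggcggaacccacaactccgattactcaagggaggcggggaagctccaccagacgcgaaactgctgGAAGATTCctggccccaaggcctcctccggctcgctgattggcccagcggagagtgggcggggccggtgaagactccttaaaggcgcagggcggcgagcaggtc

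Of all 32851 promoter entries, 6.69% held GAANNTTC, 7.17% held TTCNNGAA, 0.466% held a 3-unit heat shock element, 6.75% held the AP-1 letters, 1.55% the cAMP response element and 0.113% the ER stress response element. Hspe1 had a run of 4 alternating units at -89 to -72 from the start, read by the search as overlapping 3-unit matches. Hspa1a and Hspa1b each had GAANNTTC at -104 to -97, and their 250 bases differed at 3 positions. Hsph1, whose promoter is not shown, had TTCNNGAA. The AP-1 letters lay at -20 to -14 in Bag3 and at -182 to -176 in Hspa5, and the ER stress response element lay at -65 to -47 in Hspa5. The Dnajb1 promoter held none of these motifs, which says only that these letters are not in its 250 bases. Entries were found for 7 of the 10 genes; Hspa8, Hsp90aa1 and Hsp90ab1 had none.

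Signals are given as log2 of the processed array signal after each array was set to a common 75th percentile. A step of 1 is a 2-fold difference, and a level of one probe cannot be set against that of another. Of the 15 probes, 13 probes of 8 genes passed the filter on dim probes, which kept a probe if 1 or more conditions showed it well above background on each of their 4 arrays. All 13 were well above background on all 16 arrays. A gene was called when its adjusted p (limma, Benjamini-Hochberg over 15877 genes, 1 probe per gene, the brightest) was under 0.05. Between 37.1% and 51.2% of the spots on an array were well above background, with 37.1% to 43.9% on slide 1 (days 1 and 2) and 45.8% to 51.2% on slide 2 (days 3 and 4). Each slide held every condition, and the text gives the within-slide changes beside each called change of a member and each 2-fold change of another gene of protein folding. LPS+cordycepin replicate 2 was examined for low bright probes after the values were seen, and no other array was examined in this way. Of the probes that passed the filter, 915 had a mean log2 signal of at least 16, a cutoff also chosen after the values were seen. On this array 693 of them were below the mean of the other 3 arrays of that condition. The median difference of these bright probes was -0.14, against -0.01 for the other 20682 probes. The macrophage markers were present throughout, with 10 of 10 well above background on all 16 arrays. In the comparison of LPS+DMSO with DMSO, 2 of these 10 rose and 1 fell: Cd14, the LPS co-receptor, by a log2 change of 1.12 (slides 1.19 and 1.05), Adgre1 by 0.48, and the Fc receptor gene Fcgr1 by -1.14 (slides -1.30 and -0.99). The part of these shifts in the members' results was not tested.

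**Figure D1:**
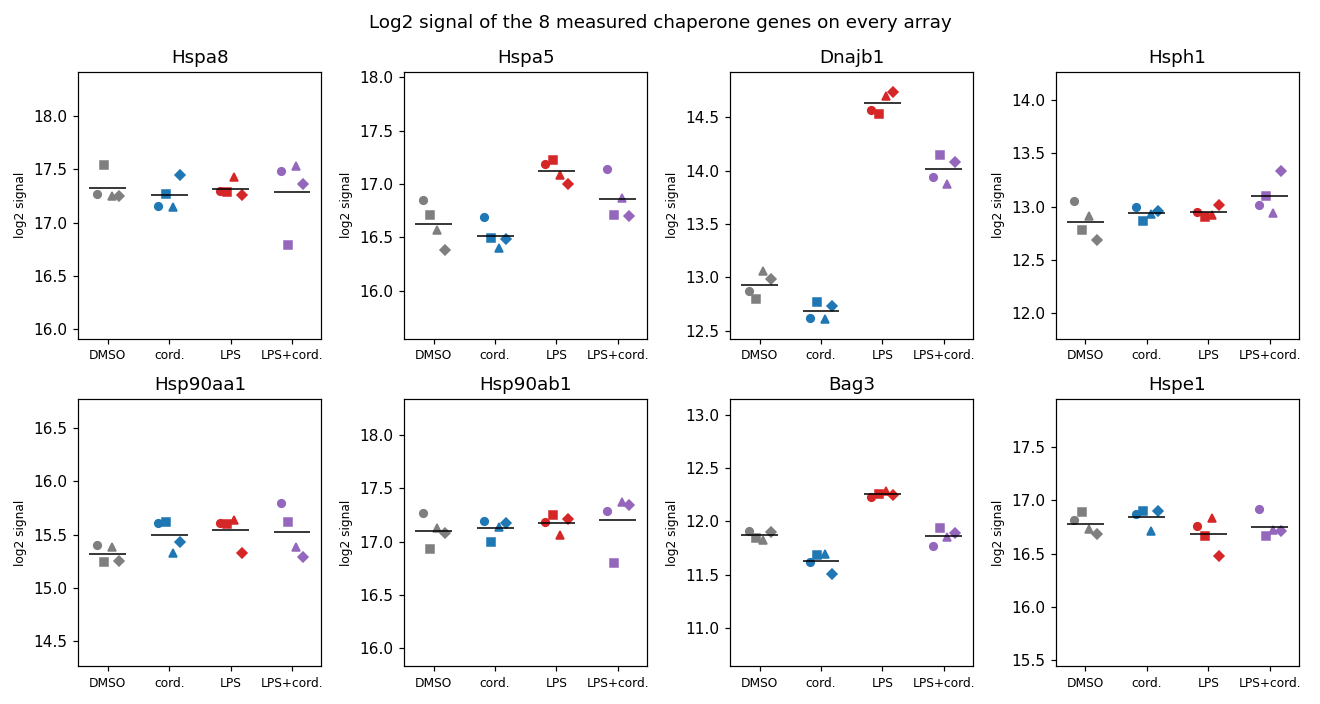
Log2 signal (y axis, 2.5 log2 units high in each panel) of the brightest probe of the 8 measured genes in the 4 conditions (x axis; cord., cordycepin; LPS, LPS+DMSO). Each marker is 1 array, its shape the day (circle 1, square 2, triangle 3, diamond 4), and the bar is the mean of 4; Dnajb1 moves from 12.93 in DMSO to 14.64 in LPS+DMSO, and each other gene spans less than 1 log2 unit over the 16 arrays.

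The members were chosen with earlier results of these data known, so their counts and median are set beside those of all genes as a description. Across the 8 measured genes, 3 rose after LPS (Dnajb1, Hspa5 and Bag3) and none fell, while 14.9% of all tested genes were called in this comparison and 5.14% rose. Cordycepin alone lowered 1 of the 8, Bag3, against 15.8% of all genes called and 7.55% lowered. Among LPS-treated cells, those with cordycepin had lower levels of 2 of the 8, Dnajb1 and Bag3, against 19.2% of all genes called and 8.47% lowered. Among cordycepin-treated cells, those with LPS had higher levels of 2 of the 8, Dnajb1 and Bag3, against 8.15% of all genes called and 3.54% raised. None of the 8 was called for a difference between the LPS effects with and without cordycepin, where 0.554% of all genes were called by limma and where 1 of the 8, Dnajb1, had an unadjusted p under 0.05. The members' median log2 change after LPS was 0.16, and that of all genes was -0.04. With arrays scaled to spiked-in control probes, a single one of these calls was kept, the rise of Dnajb1 after LPS without cordycepin; the lower Dnajb1 in LPS+cordycepin than in LPS+DMSO then had a log2 change of -0.78 at an adjusted p of 0.388, and its rise with cordycepin one of 1.02 at 0.212. With the day as a block under the same scaling, and each probe fitted on its own, both of these Dnajb1 differences passed (limma adjusted p = 0.0394 and 0.00904), and no other member probe did beyond the Dnajb1 rise after LPS. Dnajb1 was the member that passed 2-fold, and it did so in both comparisons with LPS, in which 2.09% (without cordycepin) and 1.69% (with it) of all genes were raised past 2-fold.

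**Figure D2:**
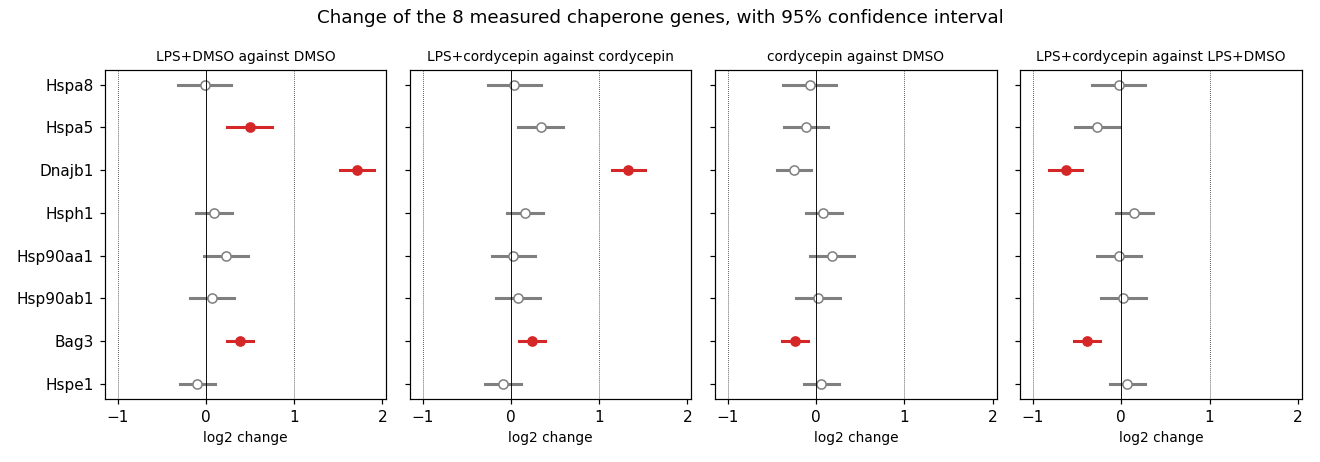
Log2 change (x axis) of the 8 measured genes (y axis) in 4 comparisons, with the 95% confidence interval of the limma fit as a line. Filled red points are called at an adjusted p under 0.05, open grey points are not, and dotted lines mark 2-fold; Dnajb1 is the point past a dotted line, at 1.71 and 1.33 in the comparisons with LPS.

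The stress-inducible HSP70 pair Hspa1a and Hspa1b was represented by 1 probe (chr17:35107117-35107176, minus strand, build mm9), and it was not well above background on any of the 16 arrays. Its log2 signal was 3.80, 3.85, 2.90 and 2.20 in DMSO, 3.75, 3.84, 3.36 and 3.54 in cordycepin, 3.41, 3.73, 2.36 and 2.40 in LPS+DMSO, and 4.01, 4.21, 4.96 and 4.15 in LPS+cordycepin, in the order of days 1 to 4. The dimmest probes that were well above background averaged 5.21 to 5.37 in the 4 conditions, so each mean of this probe lay below that level. No fold is given for it. The 60 bases of this probe are printed next to those of the 2 Hspa8 probes that lie farther upstream. How well these probes tell the inducible from the constitutive HSP70 was not tested. Capitals mark bases that the Hspa1a probe and the second Hspa8 probe share over the 23 bases where they can be aligned, of which 15 are the same.
Hspa8 probe A_52_P12877: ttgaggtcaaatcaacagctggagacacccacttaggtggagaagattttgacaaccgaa
Hspa8 probe A_55_P2069721: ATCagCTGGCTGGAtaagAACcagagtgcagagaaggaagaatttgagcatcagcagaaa
Hspa1a probe A_55_P2068459: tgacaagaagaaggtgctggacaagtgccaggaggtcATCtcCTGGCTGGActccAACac

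Hspa8 encodes HSC70, the HSP70 protein that cells make without stress, and its 3 probes did not give the same answer to LPS. The probe that lies farthest upstream, A_52_P12877 (chr9:40611142-40611201, plus strand, mm9), read 14.56, 14.68, 14.58 and 14.68 in DMSO on days 1 to 4 and 15.26, 15.26, 15.16 and 15.37 in LPS+DMSO. Every LPS array lay above every DMSO array, and the log2 change was 0.64 (SE 0.16, adjusted p = 0.0143 by limma over 21597 probes). It was 0.64 on each slide. Of the 13 member probes 5 rose after LPS, against 5.03% of all probes tested. The middle probe, A_55_P2069721, has 60 bases laid over 296 bases of the genome (chr9:40612755-40613050), so that it crosses an exon junction. It read 16.45, 16.43, 16.22 and 16.36 in DMSO and 16.77, 16.79, 16.77 and 16.82 in LPS+DMSO, again without overlap. Its log2 change was 0.42 (SE 0.08, limma adjusted p = 0.00216), or 0.34 on slide 1 and 0.51 on slide 2. With arrays scaled to the spiked-in probes neither rise was called: the upstream probe changed by 0.54 and the middle one by 0.33, each at a limma adjusted p of 1, or 0.354 and 0.698 with the day as a block.

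The third and brightest Hspa8 probe, A_55_P2080603 (chr9:40613223-40613282), read 17.27, 17.54, 17.25 and 17.25 in DMSO and 17.30, 17.29, 17.43 and 17.26 in LPS+DMSO. The ranges overlapped, and the log2 change was -0.01 (95% confidence interval -0.31 to 0.29). The gap between the upstream probe and the brightest probe on the same array widened by 0.65 after LPS (0.41 to 0.83 over the 4 days), and the gap for the middle probe by 0.43 (0.30 to 0.61). These gaps were computed after the probes were seen to disagree and are a description. The order of the probes by position is also their order by brightness, and the part of each was not tested. Since Hspa8 was counted by its brightest probe, it was not among the 3 genes that rose. With the mean of its probes it changed by 0.35 (limma adjusted p = 0.00858). The upstream probe's call was lost without replicate 1 (0.62, adjusted p = 0.114) or replicate 3 (0.66, adjusted p = 0.0984), while its value ranged from 0.60 to 0.67 over the 22 fits that left out a day or an array or took the day or slide as a block. Other scalings gave 0.54 to 0.72.

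With cordycepin alone the upstream, middle and brightest Hspa8 probes changed by 0.26, 0.02 and -0.07, and LPS on top of cordycepin changed them by 0.16, 0.21 and 0.04. None of these was called, though the groups did not overlap at 0.26 and 0.21. With quantile normalization the 0.21 became 0.25 and was called (limma adjusted p = 0.0342, and 0.0496 with the day as a block). Cordycepin with LPS gave no called difference from LPS+DMSO for any Hspa8 probe under the scaling used here. The middle probe was at 16.68, 16.48, 16.70 and 16.50 in LPS+cordycepin, each below the LPS+DMSO array of its day. The log2 difference of -0.20 (SE 0.08) had an adjusted p of 0.118 by limma. With the 75th percentile taken over all probes it became -0.32 and was called (limma adjusted p = 0.0293, and 0.0229 with the day as a block). The upstream probe spread from 14.46 to 15.56 in LPS+cordycepin, and its difference of -0.23 (SE 0.16, limma adjusted p = 0.424) was within that spread. The brightest probe was at 17.49, 16.79, 17.53 and 17.36. The 16.79 stood on LPS+cordycepin replicate 2, where this probe differed by -0.66 from the mean of the other arrays of that condition. On that array the median difference of the 915 bright probes was -0.14, and the upstream Hspa8 probe differed by 0.69. Without that array the difference of the brightest probe from LPS+DMSO was 0.14 in place of -0.03, neither called. The source of the low value was not tested. Over all 16 arrays the brightest probe correlated with the middle one at r = 0.31 and with the upstream one at r = -0.31, and the last 2 with each other at 0.64. These correlations share the arrays' conditions and scaling and are descriptions. The genes whose levels moved most like the brightest Hspa8 probe over the 16 arrays were Eef1a1 (Pearson r = 0.962), Pbld1 (0.953) and Phyhd1 (0.945). These changed by 0.02, -0.05 and -0.03 log2 units after LPS, so the likeness is between arrays and not a shared rise. Its source was not tested.

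**Figure D3:**
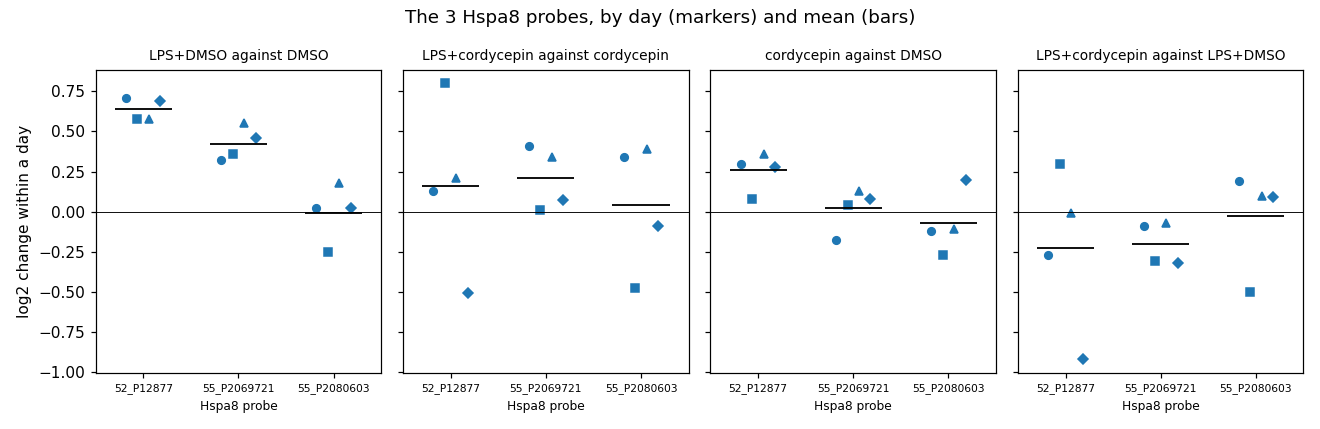
Log2 change within each day (y axis) of the 3 Hspa8 probes, from the most upstream to the most downstream (x axis), in 4 comparisons. Markers are the 4 days as in the plot of signals by array, and bars are the means. After LPS without cordycepin the means step from 0.64 to 0.42 to -0.01, and with cordycepin the days scatter more. The probes also grow brighter in this order (DMSO means 14.62, 16.37 and 17.33), so position and brightness cannot be told apart.

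Hspa5 encodes BiP, the HSP70 of the endoplasmic reticulum, and it rose after LPS. Its probe (chr2:34631913-34631972, plus strand, mm9) read 16.85, 16.71, 16.57 and 16.38 in DMSO on days 1 to 4 and 17.19, 17.22, 17.08 and 17.00 in LPS+DMSO. All LPS+DMSO arrays were above all DMSO arrays. The log2 change was 0.50 (SE 0.12, 1.41-fold, limma adjusted p = 0.00949), or 0.43 on slide 1 and 0.56 on slide 2. The call was lost when a whole day was left out, with adjusted p = 0.0506 without replicate 2, 0.0888 without replicate 3 and 0.0551 without replicate 4, at changes of 0.45 to 0.49, and without the filter on dim probes (0.50, adjusted p = 0.0549).

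With cordycepin, Hspa5 stood at 16.69, 16.49, 16.40 and 16.48 without LPS and at 17.14, 16.71, 16.87 and 16.70 with it. These ranges did not overlap, but the log2 change of 0.34 (SE 0.12) did not pass the test (limma adjusted p = 0.112). It passed with the day as a block (adjusted p = 0.0269), with the slide as a block (0.0393) and with quantile normalization (0.0499). The difference of -0.27 (SE 0.12) between LPS+cordycepin and LPS+DMSO likewise had an adjusted p of 0.155 without the block and 0.0474 with it, but 0.0678 with the slide as a block and 0.0504 with the day as a block when each probe was fitted on its own. It also passed without LPS+cordycepin replicate 1, at -0.36 (adjusted p = 0.0452). Cordycepin alone differed from DMSO by -0.11 (95% confidence interval -0.36 to 0.14). The promoter of this gene was the member promoter that held the ER stress response element. Over the 16 arrays H3f3b (r = 0.952), Tmem39a (0.943) and Ccl12 (0.929) followed the Hspa5 pattern most closely.

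Dnajb1, the cytosolic J-domain partner of HSP70 known as HSP40, gave the clearest response of the 8 genes. Its probe (chr8:86135660-86135719, plus strand, mm9) read 12.87, 12.80, 13.06 and 12.98 in DMSO on days 1 to 4, and 14.57, 14.53, 14.70 and 14.74 in LPS+DMSO. The 2 groups were separated by over 1 log2 unit at their nearest arrays. LPS raised it by 1.71 log2 units (SE 0.09, 3.27-fold, limma adjusted p = 2.61e-09), with 1.71 on slide 1 and 1.70 on slide 2, and with daily changes from 1.64 to 1.77.

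After cordycepin, Dnajb1 read 12.62, 12.77, 12.61 and 12.73 without LPS and 13.94, 14.15, 13.87 and 14.08 with LPS. LPS raised it in these cells too, by 1.33 log2 units (SE 0.09, 2.51-fold, limma adjusted p = 7.84e-08), with 1.35 and 1.31 on the slides. Its level in LPS+cordycepin was below every LPS+DMSO array, by 0.63 log2 units in the mean (log2 change -0.63, SE 0.09, 0.647-fold, limma adjusted p = 7.6e-05), and the slides gave -0.51 and -0.75. Without LPS, the cordycepin difference was -0.25 (SE 0.09) with an adjusted p of 0.0768, and it passed the threshold without replicate 2 (-0.32, adjusted p = 0.0415) or without its DMSO array alone (-0.29, adjusted p = 0.0409).

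The rise of Dnajb1 after LPS was smaller with cordycepin by 0.35 to 0.42 log2 units on each of the 4 days. The fitted difference between the 2 rises was -0.38 (SE 0.13, unadjusted p = 0.00855), and it did not pass the threshold over all genes (limma adjusted p = 0.29, and 0.245 with the day as a block). A smaller rise with cordycepin was therefore seen on 4 of 4 days but was not called. The tested genes most like Dnajb1 over the 16 arrays, looked up after its values were known, were Id2 (r = 0.992), Dusp2 (0.991) and Arc (0.985). These changed by 3.17, 3.40 and 3.84 log2 units after LPS, against 1.71 for Dnajb1, and their differences between LPS+cordycepin and LPS+DMSO were -0.92, -0.96 and -0.98.

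**Figure D4:**
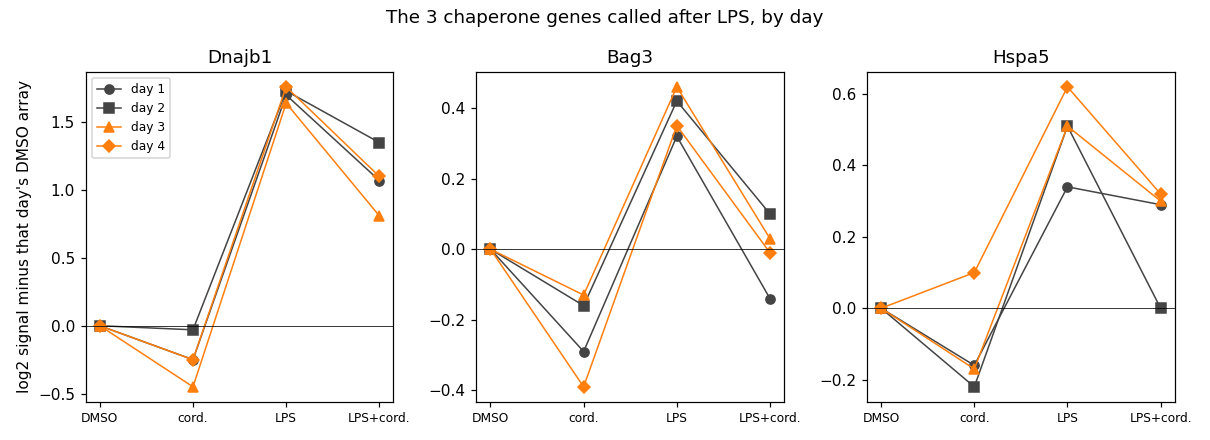
Log2 signal minus that day's DMSO array (y axis, scaled separately for each gene) of Dnajb1, Bag3 and Hspa5 in the 4 conditions (x axis). Each line joins the 4 arrays of 1 day, grey for slide 1 and orange for slide 2; Dnajb1 and Bag3 peak in LPS+DMSO on all 4 days and are lower in LPS+cordycepin.

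Bag3 encodes a BAG-domain nucleotide exchange factor of HSP70 that links chaperones to autophagy, and its changes were small and evenly spread over the days. Its probe (chr7:135690281-135690340, plus strand, mm9) read 11.91, 11.84, 11.82 and 11.90 in DMSO, 12.23, 12.26, 12.28 and 12.25 in LPS+DMSO, 11.62, 11.68, 11.69 and 11.51 in cordycepin, and 11.77, 11.94, 11.85 and 11.89 in LPS+cordycepin. LPS+DMSO lay above every other array, and cordycepin alone lay below every other array. LPS raised Bag3 by 0.39 log2 units (SE 0.07, 1.31-fold, limma adjusted p = 0.00107), with 0.36 and 0.41 on the 2 slides. In LPS+cordycepin its level was lower than in LPS+DMSO by the same amount (log2 change -0.39, SE 0.07, adjusted p = 0.000638, slides -0.38 and -0.40), and the means of LPS+cordycepin (11.86) and DMSO (11.87) were within 0.01.

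Cordycepin alone changed Bag3 by -0.24 (SE 0.07, limma adjusted p = 0.0263), with -0.23 and -0.26 on the slides. LPS on top of cordycepin changed it by 0.24 (SE 0.07, limma adjusted p = 0.0475), with 0.21 and 0.27. Both calls were near the threshold. The first was lost without replicates 1, 3 or 4 as whole days, at -0.22, -0.28 and -0.19, with adjusted p from 0.109 to 0.177, and without any of 4 single arrays (DMSO replicates 1 and 4, cordycepin replicates 1 and 4), with adjusted p from 0.057 to 0.098. The second kept its call in 7 of 36 alternatives. It was lost in 18 of the 20 that left out a day or an array and in the fit with the day as a block (adjusted p = 0.0625), and with arrays scaled to spiked-in control probes it was lost and changed sign (-0.07, adjusted p = 0.891). The difference between the rises with and without cordycepin was -0.15 (95% confidence interval -0.36 to 0.06).

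Hsph1, the HSP110 protein that acts as an exchange factor for HSP70, had 2 probes, and neither was called in any comparison. The brighter (chr5:150419744-150419803, minus strand, mm9) ranged from 12.69 to 13.05 in DMSO, 12.87 to 13.00 in cordycepin, 12.90 to 13.02 in LPS+DMSO and 12.94 to 13.34 in LPS+cordycepin. Its change after LPS was 0.09 (95% confidence interval -0.11 to 0.30). The dimmer probe, upstream of it in the same transcript, changed by 0.18 (SE 0.12, limma adjusted p = 0.377), and the probes correlated at r = 0.76 over the 16 arrays. The groups overlapped in every comparison for both probes.

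The HSP90 proteins fold signalling proteins such as kinases, with Hsp90aa1 the stress-inducible form and Hsp90ab1 the constitutive one. The measured Hsp90aa1 probe (chr12:111929248-111929307, minus strand, mm9) read 15.40, 15.24, 15.38 and 15.25 in DMSO and 15.61, 15.60, 15.64 and 15.33 in LPS+DMSO. It was higher after LPS on 4 of 4 days, yet the log2 change of 0.23 (SE 0.12) had an adjusted p of 0.232 by limma and the groups overlapped. A second Hsp90aa1 probe, placed on an expressed sequence tag, was well above background on 0 of 16 arrays. Hsp90ab1 (chr17:45704788-45704847, minus strand, mm9) ranged from 16.93 to 17.27 in DMSO and from 17.06 to 17.25 in LPS+DMSO. Its change after LPS was 0.07 (95% confidence interval -0.18 to 0.32), and its other changes lay between 0.02 and 0.08. For both genes no comparison was called, and for Hsp90ab1 the interval still allowed a rise of 0.32.

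Hspe1, the mitochondrial co-chaperonin HSP10 that caps the HSP60 ring, had 3 probes and no call. The brightest (chr1:55148026-55148085, plus strand, mm9) read 16.82, 16.89, 16.73 and 16.69 in DMSO and 16.76, 16.67, 16.84 and 16.48 in LPS+DMSO, with a log2 change of -0.10 (95% confidence interval -0.29 to 0.10). The second probe covers nearly the same bases (chr1:55148023-55148082) and correlated with it at r = 0.97, so the 2 are not separate evidence. The third, laid over 327 bases of the genome, changed by 0.00 (SE 0.12). All changes of the 3 probes in the 4 comparisons of conditions lay between -0.14 and 0.09. Hspd1, which encodes HSP60, changed by -0.03 (SE 0.09) after LPS. The Hspe1 promoter was printed because it held 3-unit heat shock elements and the gene was not called. The part of these elements in its level was not tested.

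The transcription factor genes showed no called change either. Hsf1, the main heat shock factor, averaged 11.87 ± 0.15 in DMSO and 11.92 ± 0.11 in LPS+DMSO (SD, n = 4), a log2 change of 0.05 (SE 0.11). Hsf2 changed by -0.26 (SE 0.15, limma adjusted p = 0.32). Dnaja1, another cytosolic J-domain protein induced by heat, changed by 0.16 (SE 0.10, limma adjusted p = 0.347), and Hsp90b1, the HSP90 of the endoplasmic reticulum, by 0.20 (SE 0.15, limma adjusted p = 0.456). The Hspb1 probe did not pass the filter. mRNA levels do not report the activity of a factor such as HSF1, which is controlled at the protein level.

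Of 126 other genes of protein folding and its control, 104 were tested. After LPS, 5 of them rose, beside 5.14% of all genes that rose, and 1 fell. Of the 104, 5.77% were called in either direction, against 14.9% of all genes. The 3 that passed 2-fold were Ier5, an immediate early gene known as a partner of HSF1, with 1.75 log2 units (SE 0.14, limma adjusted p = 2.27e-07, slides 1.82 and 1.67), Herpud1, which serves the degradation of proteins from the endoplasmic reticulum, with 1.58 (SE 0.14, limma adjusted p = 1.16e-06, slides 1.57 and 1.60), and the endoplasmic J-domain protein Dnajb9 with 1.21 (SE 0.13, limma adjusted p = 8.47e-06, slides 1.06 and 1.36). The others were Dnajb5 (0.97), Bag5 (0.30) and, lowered, Hspa4l (-0.37), named here after their values were seen. By list, 2 of 36 J-domain genes rose, 2 of 21 endoplasmic reticulum genes and 1 of 9 exchange factor and BAG genes. Of 16 HSF1-induced genes outside the members 1 rose and 1 fell, and of 7 other HSP70 and HSP110 genes 1 fell and none rose. Dnajb9 is in both the J-domain and endoplasmic reticulum lists, and Hspa4l is the gene that fell in both of its lists. None of 19 genes of HSP90 and its co-chaperones, none of 9 chaperonins, none of 3 small heat shock proteins and none of 3 heat shock factors and their regulators was called by limma.

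Cordycepin alone lowered 8 of the 104, beside 7.55% of all genes lowered, and raised 1. Called in either direction were 8.65%, against 15.8% of all genes, and none of the 104 passed 2-fold. Among those lowered were Herpud1 (-0.66, limma adjusted p = 0.00362) and Dnajb2 (-0.75, limma adjusted p = 0.004). In LPS+cordycepin against LPS+DMSO, 8 were lower, beside 8.47% of all genes, and 1 was higher. Called in either direction were 8.65%, against 19.2% of all genes. Herpud1 differed most, by -1.89 log2 units (SE 0.14, limma adjusted p = 1.26e-07, slides -1.81 and -1.97): its mean log2 signal was 14.70 ± 0.30 in LPS+DMSO and 12.82 ± 0.10 in LPS+cordycepin, below the 13.12 ± 0.22 of DMSO (SD, n = 4). Dnajb2, a J-domain protein not called after LPS without cordycepin (0.33, limma adjusted p = 0.218), was lower by 1.13 log2 units (log2 change -1.13, SE 0.16, limma adjusted p = 8.58e-05, slides -0.96 and -1.30). Hspa2, an HSP70 known from the testis, was the gene called higher, by 1.06 (1.06 on each slide), at a signal well above background on 11 of 16 arrays. It passed the filter through the cordycepin group (4 of 4 arrays), against 2 of 4 in LPS+DMSO and 3 of 4 in LPS+cordycepin. Its LPS+DMSO mean of 4.85 lay below the 5.21 that the dimmest probes well above background averaged there. The size of this difference is therefore not a measured fold. In LPS+cordycepin against cordycepin, 3 of the 104 rose and none fell, or 2.88%. Of all genes, 3.54% rose and 8.15% were called in either direction. The 3 were Ier5 (1.37, slides 1.59 and 1.16), Dnajb9 (1.22, slides 1.32 and 1.12) and Dnajb5 (1.01, slides 0.81 and 1.21). Herpud1 was the single gene of the 104 called for a difference between the LPS effects, at -1.22 (SE 0.20, limma adjusted p = 0.0111, slides -1.25 and -1.20). Its difference was called and that of Dnajb1 was not, and whether the 2 genes differ from each other was not tested.

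**Figure D5:**
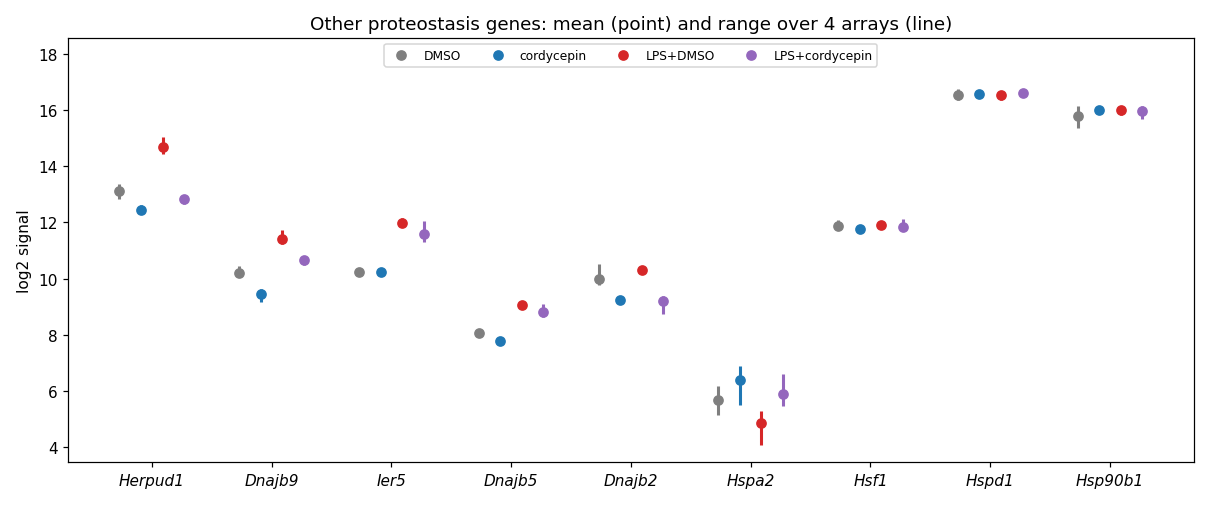
Log2 signal (y axis) of 9 other genes of protein folding (x axis), with the mean of 4 arrays as a point and the lowest to highest array as a line, coloured by condition. Herpud1 is high in LPS+DMSO alone (14.70), Dnajb9, Ier5 and Dnajb5 are raised by LPS with and without cordycepin, and Hsf1, Hspd1 and Hsp90b1 had no called change.

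Markers of other cell types were examined because a bulk array cannot separate fewer cells of a type from less RNA per cell. Of the T cell markers, Cd3e and Cd4 were well above background on all 16 arrays, and none of the B cell, fibroblast or epithelial markers was. The summed linear signal of 3 B cell markers was 66.6 to 106 in DMSO, 83.9 to 118 in cordycepin, 91.7 to 111 in LPS+DMSO and 315 to 1030 in LPS+cordycepin. The gene that moved in this sum was Cd79a, while Ms4a1 was not well above background on any array. Cd79a was well above background on 4 of 4 arrays in LPS+cordycepin. In DMSO, cordycepin and LPS+DMSO it was so on 2, 3 and 3. It thus entered the test through the group where it is high, so its change is a description. The Cd79a log2 change was 2.63 (SE 0.31, slides 1.99 and 3.27), from a mean of 6.32 in LPS+DMSO to 8.96 in LPS+cordycepin. It moved with the lower Dnajb1 and Bag3 in that condition, and its part in those results was not tested. The summed macrophage markers ranged from 402000 to 439000 in LPS+DMSO and from 398000 to 458000 in LPS+cordycepin.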

How the data were processed

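mRNA of RAW 264.7 cells was labelled with Cy3 by a kit that primes from poly(A) tails and hybridised to 16 Agilent 1-colour mouse arrays, 4 for each condition. The deposited files hold spot intensity, which the authors background-corrected with Agilent Feature Extraction (10.10.1.1 in the submitters' processing notes, 10.7.3.1 in the file headers). The authors' own value table, deposited on a log2 scale for 25775 spots, was used as an alternative; its scaling is not given in the sources used here. The mm9 coordinates come from the files.

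From the intensity, log2 values were taken, outlier spots were left out and spots of a probe were averaged. Arrays were scaled to a common 75th percentile, taken from the 18063 probes that exceeded background on each of the 16 arrays. The filter kept 21597 probes, and the brightest probe per gene gave 15877 genes, with 88 missing values among the kept probes. No member spot was saturated. The limma package (3.58.1, R 4.3.3) fitted 4 condition means to all 16 arrays without a block, and p-values were adjusted over all genes or all probes by Benjamini-Hochberg. The number of arrays limits the precision. The procedure was tested on simulated data with independent noise and no day or slide effect, so that test does not cover such effects.

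Per the labels, a replicate number marks a day, so the numbers pair the samples. Residuals of arrays with the same number correlated at 0.20 in the mean (-0.06 to 0.44), those of other numbers on the same slide at 0.18 and on the other slide at -0.19. Members and lists were chosen with earlier results of these data known. Named genes are all members, the other listed genes that were called and changed at least 2-fold in any comparison, the 6 genes Hsf1, Hsf2, Hspd1, Hspb1, Dnaja1 and Hsp90b1, and the 3 genes most correlated with a member. Any others were named after their values were seen, and 2 listed genes are not reported here and are left out of the list counts. Promoters are from RefSeq (GRCm38.p6).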

Additional observations from a re-analysis of the deposited data

Results flagged for a closer look

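In 4 of the 52 sets of 4 arrays examined (13 probes in 4 conditions), 1 array lay apart from the other 3 by more than Dixon's 95% critical value for the gap over the range, where chance gives about 1 in 20. The brightest Hspa8 probe was at 17.54 on DMSO replicate 2, with the others at 17.25 to 17.27. Hsp90aa1 was at 15.33 on LPS+DMSO replicate 4, with the others at 15.60 to 15.64. Hsp90ab1 was at 16.80 on LPS+cordycepin replicate 2, with the others at 17.29 to 17.37. The brightest Hspe1 probe was at 16.71 on cordycepin replicate 3, with the others at 16.87 to 16.90. None of these 4 probes was called in any comparison.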

How the results depend on the processing

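The rise of Dnajb1 after LPS kept its direction and its side of the threshold in all 36 alternatives, at 1.59 to 1.78 log2 units. The number of members called after LPS was 3, and it was 1 with arrays scaled to 7 spiked-in control probes and 1 with a 2-fold minimum, 2 without the filter on dim probes and 4, Hspa8 included, with the mean of a gene's probes. The number lowered by cordycepin alone was 1, and it was 0 with scaling to the median, scaling to the spiked-in probes, no filter on dim probes, the fit of only the groups compared, the 2-fold minimum or an adjusted p under 0.01. The number called in LPS+cordycepin against LPS+DMSO was 2, and 0 with the spiked-in probes or the 2-fold minimum. With the day as a block on the spiked-in scaling, each probe on its own, Dnajb1 passed (-0.78, adjusted p = 0.0394). The number in LPS+cordycepin against cordycepin was 2. It was 3, with Hspa5, under quantile normalization or the slide as a block. It was 0 with the spiked-in probes and 1 with scaling to the median, the 75th percentile over all probes, normexp background, no filter, the filter on all 16 arrays, each probe as a row of its own, only the groups compared, the 2-fold minimum or an adjusted p under 0.01. Scaling to the spiked-in probes moved the median of all genes to -0.14, 0.10, -0.12 and -0.36 in these 4 comparisons, from -0.04, 0.04, 0.03 and -0.05, and cut the calls over all genes from 2372, 2505, 3051 and 1294 to 519, 704, 943 and 391. Leaving out 1 array or 1 day gave 2 to 3, 0 to 2, 2 to 3 and 1 to 2 members called, and 0 for the difference between LPS effects.

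In 2 cases a value changed sign with a call involved. Bag3 in LPS+cordycepin against cordycepin was 0.24 and became -0.07 with the spiked-in probes. Hspa8 after LPS was -0.01 by its brightest probe and 0.35 with the mean of its probes. With the replicate number as a block, pairing the wells of a day, 3, 1, 3, 2 and 0 members were called in the 5 comparisons, and the block changed the calls of Hspa5 (adjusted p = 0.0474 against LPS+DMSO and 0.0269 against cordycepin) and Bag3 (0.0625 against cordycepin) and no other member's. The calls over all genes for the difference between LPS effects rose from 88 to 208. The cause of these shifts was not tested. The alternatives for single probes, and scaling together with the block, were added after the data were seen. A 2-fold change in a probe not well above background, such as Hspa1a, was beyond what these arrays measure.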
